A study of Mus musculus with 6 samples.

Results

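The SLAM family receptors and their SAP adaptors were described across RNA-seq libraries of thymic natural killer (NK) cells with a knockout (KO) of Tcf7 and of wild-type (WT) thymic NK cells. The 9 genes were Slamf1, Slamf6, Slamf7, Cd244a, Cd48, Cd84, Ly9, Sh2d1a and Sh2d1b1. They were found by gene identifier among 26332 genes counted. The thymus of 2 KO and 4 WT mice on the C57BL/6 background was sorted for NK1.1+ NKp46+ cells that lacked TCRbeta, CD3 and CD8 and did not bind CD1d tetramer, and each mouse gave 1 library. KO 1, WT 1 and WT 3 were labelled male, and KO 2, WT 2 and WT 4 female. The labels name no allele, no cell type restriction of the deletion and no age. TCF-1, the product of Tcf7, acts as a transcription factor in developing T cells and innate lymphoid cells, and the series asks what it does in thymic NK cells.

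SLAM family receptors are immunoglobulin-like surface proteins of blood cells. Most bind a copy of themselves on a neighbouring cell, while CD244 (2B4) binds CD48. Tyrosine motifs in their tails recruit the small SH2-domain adaptors SAP, encoded by Sh2d1a, and EAT-2, encoded by Sh2d1b1, which decide whether engagement activates or restrains an NK cell. In humans, loss of SAP causes an X-linked lymphoproliferative disease.

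Total gene counts ranged from 16418910 to 31155303 per library, and 3 counts corresponded to 0.0963 to 0.183 CPM (counts scaled to library size). Tcf7 had 268 and 452 TMM-scaled CPM in the KO libraries, against 811 to 947 CPM in the WT libraries (log2 fold change -1.35, SE 0.17, edgeR quasi-likelihood adjusted p = 0.00294). The counts are per whole gene, so reads left in KO were not placed within Tcf7. NK markers were present in all libraries, with summed levels of 13631 and 11779 CPM over 9 genes in KO and 13845 to 14693 CPM in WT. Of these, Klrb1c, Eomes and Tyrobp were lower and none was higher. For other cell types, some listed markers were called higher in KO and none lower. Over 11 alpha-beta T cell genes the summed level was 1611 and 2097 CPM in KO against 323 to 507 CPM in WT, with 4 called higher (Trac, Trbc2, Cd4 and Cd8a). Over 2 gamma-delta T cell genes, Trdc and Sox13, it was 294 and 144 CPM against 109 to 208 CPM, with Sox13 called higher. Over 7 immature thymocyte genes it was 128 and 629 CPM against 29.3 to 146 CPM, with 3 called. The B cell list (9 genes, 6 called) had 537 and 457 CPM against 366 to 422 CPM, most of it Ighm, which was not called. The myeloid and dendritic list (12 genes, 3 called) had 178 and 253 CPM in KO, against 5.67, 10.6 and 19.3 CPM in WT 1, WT 2 and WT 3 and 133 CPM in WT 4. No T cell, thymocyte, B cell or myeloid gene of these lists was at 0 in a KO library. The stromal and epithelial list (10 genes, 4 called) had 272 and 449 CPM against 110.5 to 119 CPM, with 6 of the 10 tested. Most of that sum was Pecam1, at 245 and 402 CPM in KO and 103 to 113 CPM in WT. Of its genes, Psmb11, Col1a1, Col3a1 and Pdgfra were at 0 in KO 1, and Foxn1 and Pdgfra were at 0 in KO 2. T, B and myeloid cells also express SLAM family genes, and the part of these cells in the results below was not tested.

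The family changed unevenly. Slamf6 and Cd84 fell in KO, no member rose by the test, and 7 of the 9 were not called at an adjusted p under 0.05. An unadjusted p under 0.05 was found for 7 of the 9 members and for 3998 of all 13652 genes tested. Of all genes tested, 13.7% were called, 8.13% as higher and 5.58% as lower. The median log2 fold change was -0.36 over the 9 members and 0.02 over all genes tested. All 9 members passed the filter on low counts. The KO libraries lay below the WT range for 4 members and above it for 3, whereas 39.3% of all genes tested lay outside, 18.8% below and 20.5% above. Each log2 fold change is KO minus WT from a fit with sex as a term, and all adjusted p come from edgeR's quasi-likelihood test with Benjamini-Hochberg adjustment over all genes tested. Intervals are 95% intervals of the log2 fold change before adjustment. In bulk RNA, fewer cells of a type and less RNA per cell cannot be told apart.

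**Figure D1:**
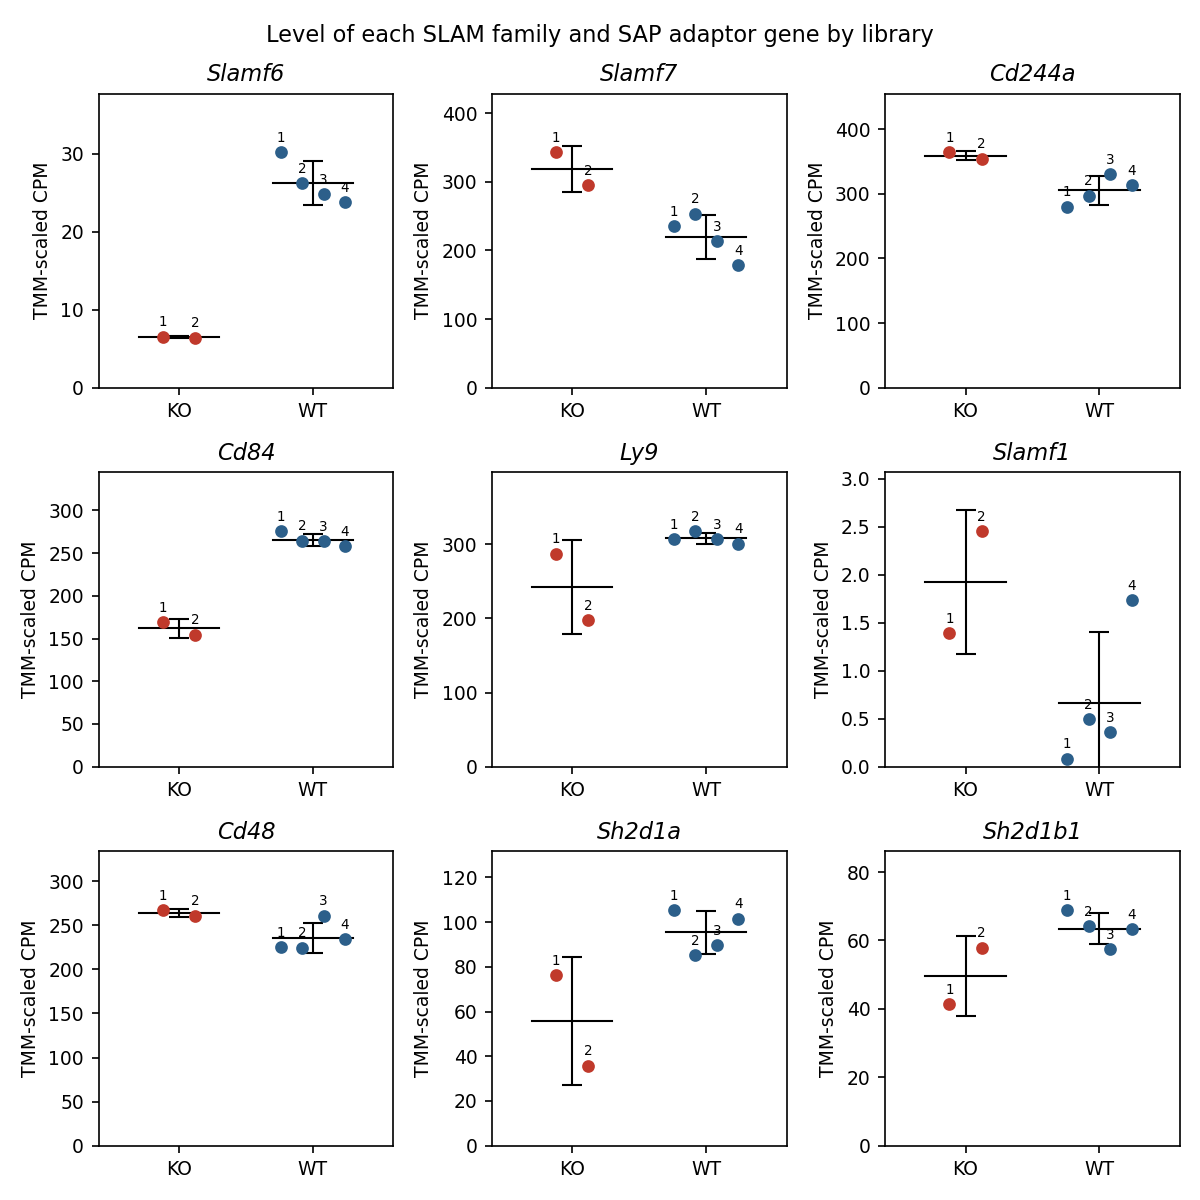
TMM-scaled CPM of each SLAM family and SAP adaptor gene in 2 KO and 4 WT libraries; points are libraries with their replicate number, bars are means with SD, and each panel has its own axis from 0. The KO points of Slamf6 and Cd84 lie close together and below all WT points, while those of Ly9 and Sh2d1a lie far apart.

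Slamf6 (Ly108, Entrez gene 30925, mm10 chromosome 1, 171917458 to 171948958) showed the largest called change of the family. It encodes a self-binding receptor that is widely used as a surface marker of TCF-1-positive CD8 T cells. Slamf6 had 6.55 and 6.39 CPM in KO 1 and KO 2, against 30.2, 26.2, 24.8 and 23.7 CPM in WT 1 to WT 4. The KO libraries were nearly equal, and both lay far below the lowest WT library. Mean levels were 6.47 ± 0.11 CPM (SD, n = 2) in KO and 26.2 ± 2.82 CPM (SD, n = 4) in WT, a KO to WT ratio of 0.247. The log2 fold change was -2.02 (SE 0.18, interval -2.43 to -1.60, adjusted p = 0.000745), and 1.77% of all genes tested had a lower one. The part of other cell types in this value was not tested. The call was kept in each of the 18 other settings tried, with log2 fold changes between -2.12 and -1.93. These settings share libraries and are not independent of one another.

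Cd84 (Entrez gene 12523, chromosome 1, 171839697 to 171890718), the gene of another self-binding receptor, fell by less. It had 169 and 154 CPM in KO, against 275, 265, 264 and 258 CPM in WT. No KO library came near the WT range, and the WT libraries differed little. On average it had 162 ± 10.7 CPM in KO (SD, n = 2) and 266 ± 7.16 CPM in WT (SD, n = 4), a KO to WT ratio of 0.609 (log2 fold change -0.72, SE 0.09, interval -0.93 to -0.50, adjusted p = 0.0034). This call too was kept in all 18 other settings, between -0.77 and -0.63.

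Start regions of the 2 genes that fell are shown with that of Slamf7, whose KO libraries lay above the WT range. Each runs 5′ to 3′ on the gene's strand, from 250 bases before to 50 bases after the RefSeq start, in GRCm38.p6, the same assembly as mm10. Slamf6 is chr1:171917212-171917511 on the plus strand, Cd84 is chr1:171839447-171839746 on the plus strand and Slamf7 is chr1:171648950-171649249 on the minus strand. The Slamf7 window lies inside the outer bounds of its gene record, at the start that the promoter table uses. Capitals mark the TCF/LEF core CTTTGA or CTTTGT read on either strand.
Slamf6: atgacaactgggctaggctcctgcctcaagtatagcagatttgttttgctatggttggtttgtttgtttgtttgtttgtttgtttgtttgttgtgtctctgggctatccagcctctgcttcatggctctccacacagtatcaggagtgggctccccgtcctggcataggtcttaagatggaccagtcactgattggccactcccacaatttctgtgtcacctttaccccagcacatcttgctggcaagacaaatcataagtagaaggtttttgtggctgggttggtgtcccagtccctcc
Cd84: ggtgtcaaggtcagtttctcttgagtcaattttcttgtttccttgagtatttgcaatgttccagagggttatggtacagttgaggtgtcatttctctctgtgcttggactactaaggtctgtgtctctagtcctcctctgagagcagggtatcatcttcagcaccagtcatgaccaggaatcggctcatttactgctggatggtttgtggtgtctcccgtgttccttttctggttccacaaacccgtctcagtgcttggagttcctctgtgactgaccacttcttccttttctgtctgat
Slamf7: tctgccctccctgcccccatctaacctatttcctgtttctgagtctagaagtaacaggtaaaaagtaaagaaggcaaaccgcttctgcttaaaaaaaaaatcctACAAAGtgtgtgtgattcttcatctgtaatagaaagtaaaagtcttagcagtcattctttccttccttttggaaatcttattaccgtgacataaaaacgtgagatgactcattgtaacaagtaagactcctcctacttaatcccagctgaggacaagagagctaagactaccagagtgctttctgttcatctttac
Neither core was found in the Slamf6 or Cd84 window. The Slamf7 window held ACAAAG, the reverse complement of CTTTGT, from 146 bases before the start. Of the 7 members in the promoter table, 2 held a match, Slamf7 and Cd48, and 31.2% of all 32851 promoter windows did. Matching letters are no proof of a binding site, and the window covers only the start region.

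Slamf7, Cd244a and Cd48 were the 3 members with both KO libraries above the WT range, and none passed the test. Slamf7 (CRACC, Entrez gene 75345, chromosome 1, 171632403 to 171653037) encodes a self-binding receptor that activates NK cells through EAT-2. It had 343 and 295 CPM in KO, against 235, 253, 213 and 179 CPM in WT, averaging 319 ± 33.9 CPM in KO (SD, n = 2) and 220 ± 32.1 CPM in WT (SD, n = 4). Its log2 fold change of 0.53 (SE 0.15, interval 0.19 to 0.87) missed the threshold narrowly, at an adjusted p of 0.0511. It passed in 11 of 18 other settings, among them DESeq2 (0.00585), limma voom (0.0316) and the robust option (0.035). It missed with RLE scaling (0.0509), with the replicate block (0.124) and with WT 3 and WT 4 left out (0.11). It also missed without WT 1 (0.116), without WT 3 (0.147), and without KO 1 or KO 2 (log2 fold changes 0.44 and 0.61). Whether Slamf7 differs between the genotypes is not settled by these 6 libraries.

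Cd244a (2B4, Entrez gene 18106, chromosome 1, 171558718 to 171585316) encodes the receptor of CD48. It had 364 and 354 CPM in KO, against 280, 297, 331 and 313 CPM in WT. The gap to the highest WT library was small, and the log2 fold change was 0.24 (SE 0.10, interval 0.0026 to 0.47, adjusted p = 0.166). Cd48 (Entrez gene 12506, chromosome 1, 171681245 to 171705258), the lipid-anchored ligand, had 267 and 261 CPM in KO, against 225, 224, 261 and 234 CPM in WT. Its KO 2 and WT 3 libraries were nearly equal, and the log2 fold change was 0.16 (SE 0.10, interval -0.07 to 0.39, adjusted p = 0.322). The intervals put the KO to WT ratio at no more than 1.38 for Cd244a and 1.31 for Cd48. Per length, Cd48 stood at 2.41 and 2.42 times Cd244a in the KO libraries and at 2.46 to 2.65 times in the WT libraries.

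Ly9 (CD229, Entrez gene 17085, chromosome 1, 171588613 to 171607410), a self-binding receptor gene of T, B and NK cells, differed between the KO libraries. It had 287 CPM in KO 1 and 198 CPM in KO 2, against 307, 318, 307 and 301 CPM in WT. KO 1 was close to the WT range, and KO 2 was well below it. The log2 fold change was -0.36 (SE 0.13, interval -0.68 to -0.05, adjusted p = 0.12). It was -0.65 without KO 1 and -0.10 without KO 2. With sex in the fit, each of these compares the remaining KO library with the WT libraries of its sex only. Library and sex cannot be told apart in them. In GENCODE M21 the Cd244 gene model runs over Ly9 on the opposite strand, and reads without strand cannot be divided between them there. The RefSeq models of the pair do not overlap.

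Slamf1 (CD150, Entrez gene 27218, chromosome 1, 171767131 to 171801184), a self-binding receptor gene of T cells, B cells and blood stem cells, was near the detection limit. It had 24 and 66 counts in KO, or 1.39 and 2.45 CPM, against 2, 15, 6 and 43 counts in WT, or 0.08, 0.49, 0.36 and 1.74 CPM. WT 4 lay between the KO libraries, so the groups overlapped. The log2 fold change was 1.90 (SE 0.87, interval -0.14 to 3.93, adjusted p = 0.197). It was 1.14 without KO 1 (adjusted p = 0.615) and 2.69 without KO 2 (adjusted p = 0.259), and 1.45 to 2.51 without 1 WT library (adjusted p 0.126 to 0.355). The summed alpha-beta T, thymocyte, B, and myeloid and dendritic markers given above were also highest in KO 1, KO 2 and WT 4. The gamma-delta T cell and stromal lists did not share this, and the part of any of these cells was not tested.

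The 3 family genes outside the 9 were low as well. Slamf9 had 6 and 42 counts in KO, against 0, 0, 0 and 35 counts in WT (adjusted p = 0.398). Slamf8 had 0 and 23 counts in KO, against 0, 0, 0 and 4 counts in WT, and was too low to test. Both were highest in KO 2 and next in WT 4, and the part of other cell types in these counts was not tested. Sh2d1b2 (ERT), the mouse copy beside EAT-2, had 2 and 3 counts in KO, against 33, 14, 7 and 20 counts in WT (adjusted p = 0.152). Both KO libraries were at or under the 3-count floor, so no fold is given.

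**Figure D2:**
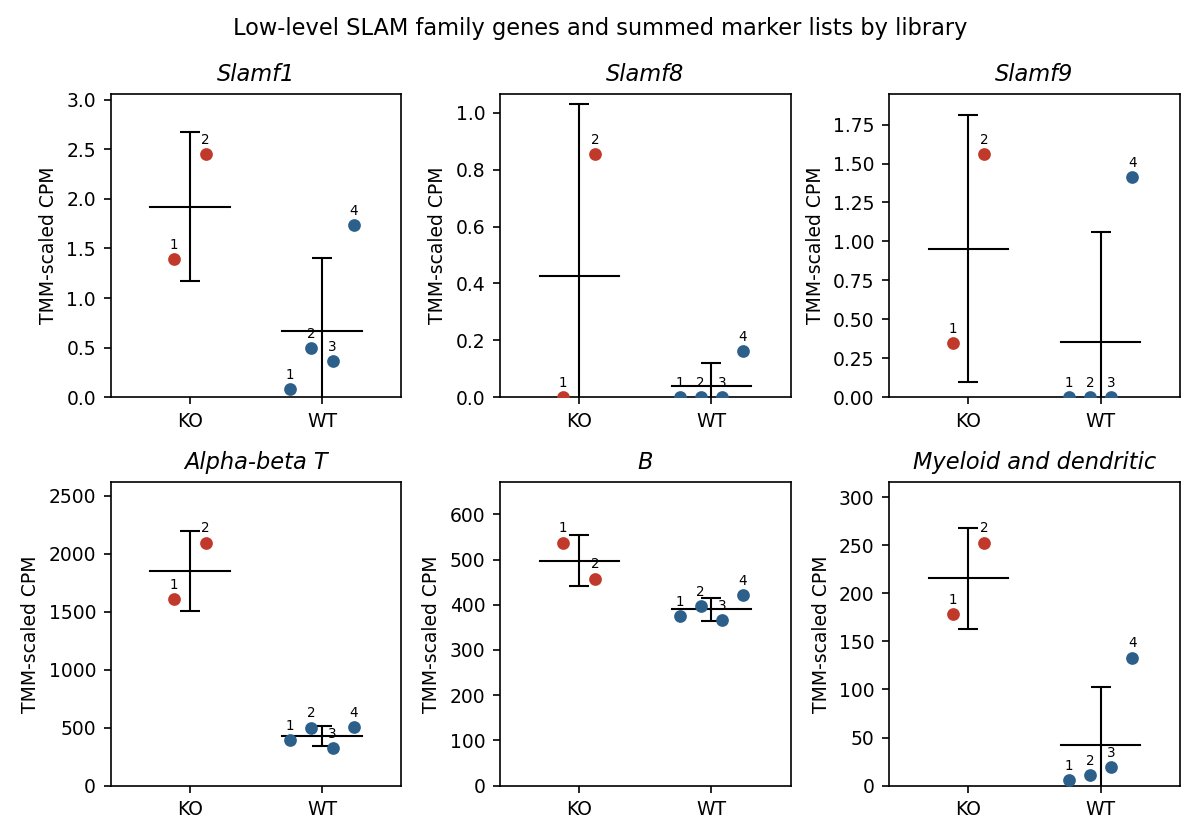
TMM-scaled CPM of Slamf1, Slamf8 and Slamf9 (upper row) and summed CPM of the alpha-beta T cell, B cell and myeloid and dendritic marker lists (lower row) in 2 KO and 4 WT libraries; points carry replicate numbers, bars are means with SD. WT 4, at 1.74 CPM for Slamf1 and 133 CPM for the myeloid list, stands above the other WT libraries.

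The adaptors were lower in KO by their means, and neither was called. Sh2d1a (SAP, Entrez gene 20400, chromosome X, 42502565 to 42522097), which links the receptors to the kinase Fyn, had 76.2 CPM in KO 1 and 35.7 CPM in KO 2, against 105, 85.1, 89.8 and 102 CPM in WT. Both KO libraries lay below all WT libraries, KO 2 far more so than KO 1. It averaged 55.9 ± 28.6 CPM in KO (SD, n = 2) and 95.5 ± 9.56 CPM in WT (SD, n = 4). The log2 fold change was -0.84 (SE 0.24, interval -1.39 to -0.29, adjusted p = 0.0542). Without KO 1 it was -1.39 (adjusted p = 0.00785), and without KO 2 it was -0.36 (adjusted p = 0.261). DESeq2 and limma voom put it under the threshold (adjusted p = 0.00384 and 0.0266). In GENCODE M21 the end of Sh2d1a overlaps Tenm1 on the opposite strand, while the RefSeq records of the pair do not overlap. Tenm1 had 2 and 83 counts in KO and 1, 0, 0 and 7 counts in WT, which do not measure reads shared with Sh2d1a. Predicted genes of GENCODE M21 also overlap Slamf6, Slamf7 and Cd48, and a microRNA gene overlaps Slamf7. In RefSeq, the noncoding gene Gm51686 lies inside Cd84 and Gm35200 overlaps the start of Cd244a. Neither was among the genes counted. Reads without strand cannot be divided where the strands differ.

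Sh2d1b1 (EAT-2, Entrez gene 26904, chromosome 1, 170277318 to 170286769), which couples Slamf7 and other receptors to NK activation, had 41.4 CPM in KO 1 and 57.9 CPM in KO 2, against 68.8, 64.2, 57.5 and 63.4 CPM in WT. KO 2 fell inside the WT range. The log2 fold change was -0.37 (SE 0.14, interval -0.70 to -0.03, adjusted p = 0.143), -0.15 without KO 1 (adjusted p = 0.648) and -0.61 without KO 2 (adjusted p = 0.0826). How the counting divided reads between Sh2d1b1 and its neighbouring copy Sh2d1b2 is not given in the sources used here. KO 1 thus held the lower level of Sh2d1b1 and KO 2 the lower level of Sh2d1a. Per length, Sh2d1b1 stood at 0.311 of Sh2d1a in KO 1 and 0.928 in KO 2, against 0.357 to 0.431 in WT. The summed adaptor level was 122 and 84 RPKM (CPM per kilobase of the deposited gene length) in KO and 149 to 177 RPKM in WT.

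**Figure D3:**
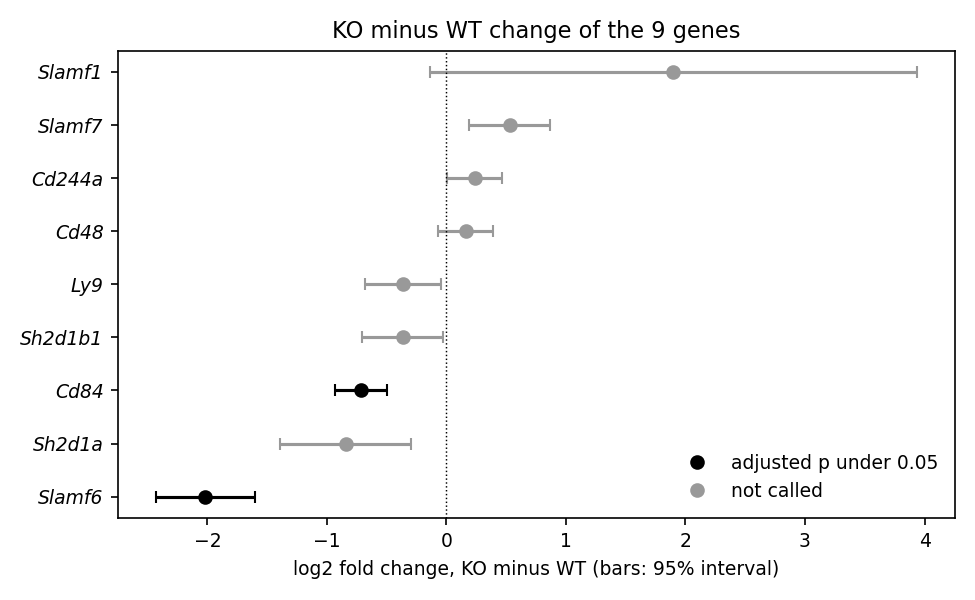
Log2 fold change (KO minus WT) of the 9 genes with 95% intervals before adjustment; black points are called at an adjusted p under 0.05 and grey points are not. Slamf6 at -2.02 and Cd84 at -0.72 are called, and the interval of Slamf1 is the widest.

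Levels of different genes were compared per length. In KO the order by mean was Cd48 (231 ± 3.80 RPKM), Ly9 (99 ± 25.9), Cd244a (95.6 ± 1.85), Slamf7 (80.2 ± 8.53), Sh2d1a (68.3 ± 34.9), Sh2d1b1 (34.7 ± 8.14), Cd84 (25.9 ± 1.71), Slamf6 (2.65 ± 0.05) and Slamf1 (0.71 ± 0.28), each in RPKM with SD and n = 2. Library ranges of the neighbours Ly9 and Cd244a overlapped, as did those of Slamf7 and Sh2d1a. In WT the order was Cd48 (207 ± 14.9 RPKM), Ly9 (126 ± 2.87), Sh2d1a (117 ± 11.7), Cd244a (81.2 ± 5.78), Slamf7 (55.3 ± 8.06), Sh2d1b1 (44.3 ± 3.24), Cd84 (42.5 ± 1.14), Slamf6 (10.7 ± 1.15) and Slamf1 (0.25 ± 0.27), with n = 4. There, Ly9 overlapped with Sh2d1a, and Sh2d1b1 with Slamf7 and Cd84. The orders by mean differ only in the place of Sh2d1a, which came below Cd244a and Slamf7 in KO and above them in WT. In KO 1, Sh2d1a (93.0 RPKM) was above Slamf7 (86.2) and below Cd244a (96.9). Its place below Slamf7 thus rested on KO 2, at 43.6 RPKM against 74.1 for Slamf7.

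The summed level of the 7 receptors overlapped between the genotypes, at 564 and 506 RPKM in KO and 508 to 548 RPKM in WT. Its make-up differed. Slamf6 made up 0.475% and 0.517% of the receptor sum in KO, against 1.85% to 2.41% in WT, and Cd84 4.80% and 4.88% against 7.71% to 8.60%. Slamf7 made up 15.3% and 14.7% in KO, against 8.86% to 12.2% in WT. Cd48, the largest part, made up 41.4% and 45.2% in KO, against 37.6% to 41.7% in WT. Ly9 made up 20.8% and 15.9% in KO, against 22.9% to 24.8% in WT. Cd244a made up 17.2% and 18.6% in KO, against 14.5% to 16.4% in WT. Slamf1 made up 0.0917% and 0.180% in KO, against 0.00588% to 0.127% in WT. Per length, Slamf7 stood at 32.2 and 28.4 times Slamf6 in KO and at 4.63 to 5.94 times in WT. Such ratios within a library do not depend on the scaling between libraries. They were chosen with the members' values known and carry no test.

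Slamf6 and Cd84 lie next to each other at one end of the receptor cluster on chromosome 1. Along the cluster, Cd244a, Ly9, Slamf7, Cd48 and Slamf1 come before them, and none of these was called. Of the nearest genes outside the cluster, 5 were tested (Alyref2, Vangl2, Ncstn, Copa and Pex19). Vangl2, the closest on the Slamf6 side, had a log2 fold change of 1.14 at low level (SE 0.82, adjusted p = 0.40). Pex19, a peroxisome assembly gene, was the only neighbour called lower (45.5 ± 3.13 CPM in KO, SD, n = 2, and 60.6 ± 0.52 CPM in WT, SD, n = 4, log2 fold change -0.41, adjusted p = 0.0389). It lost the call without any one of the 6 libraries (adjusted p 0.0568 to 0.197).

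**Figure D4:**
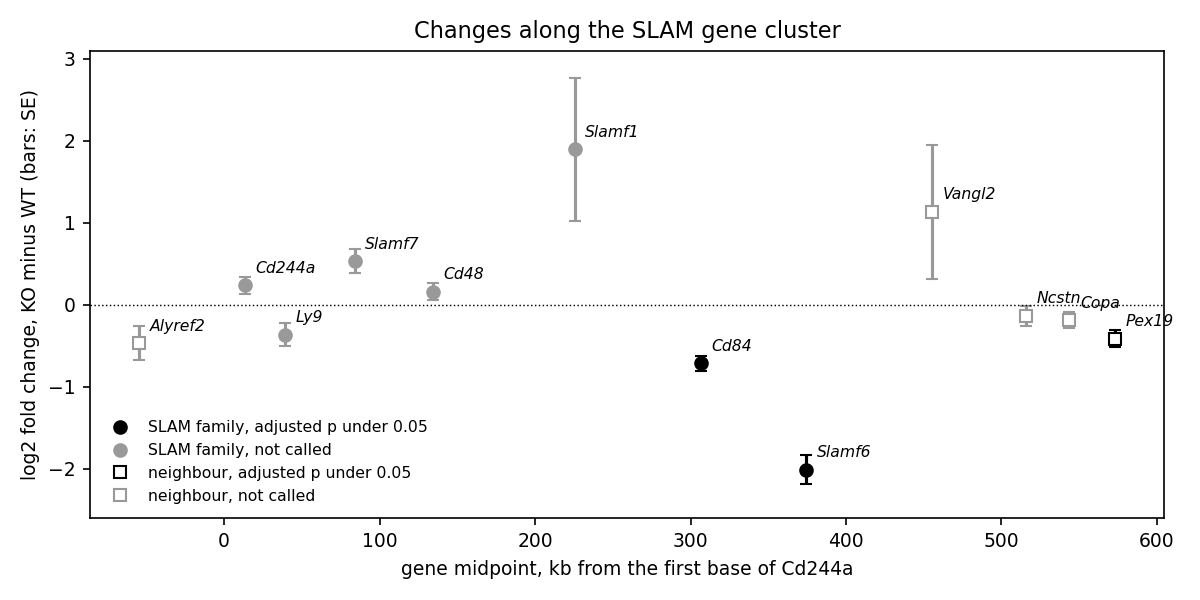
Log2 fold change (KO minus WT, bars SE) of the tested genes against the distance in kilobases of each gene's midpoint from the first base of Cd244a; circles are SLAM family genes, squares their neighbours, black those with an adjusted p under 0.05. Cd84 and Slamf6 lie side by side below 0, and Slamf1 and Vangl2 have the widest bars.

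Among 29 genes that act with SLAM receptors and SAP, 4 fell and 2 rose, and 23 were not called. Over all genes tested, 13.7% were called, 5.58% as lower and 8.13% as higher. The median log2 fold change was -0.19 over the partners and 0.02 over all genes tested. Fyn, the kinase recruited by SAP, fell to 519 and 298 CPM in KO, against 794, 753, 785 and 748 CPM in WT (log2 fold change -0.95, SE 0.16, adjusted p = 0.00926). Cd2, the gene of the other mouse receptor of CD48, fell to 221 and 127 CPM in KO, against 365, 375, 343 and 337 CPM in WT (-1.06, SE 0.18, adjusted p = 0.0104). For both genes the KO libraries lay below all WT libraries, and KO 2 was the lower. KO 2 was also the lower KO library for every member except Slamf1 and Sh2d1b1. Fyn and Cd2 were also called in each of the 18 other settings, with Fyn between -1.34 and -0.61 and Cd2 between -1.49 and -0.68. For both genes, the first of these values is without KO 1 and the second is without KO 2 and WT 4.

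Plcg1, a phospholipase C gene of the T cell receptor pathway, rose to 41.0 and 44.6 CPM in KO, against 6.76, 11.2, 4.92 and 13.3 CPM in WT (2.34, SE 0.24, adjusted p = 0.0014). The adaptor gene Lat, which carries Plcg1 in T cells, rose to 103 and 105 CPM, against 63.7, 77.2, 61.4 and 83.4 CPM (0.55, adjusted p = 0.0214). The summed alpha-beta T cell markers given above were higher in the same KO libraries, and their part in these values was not tested. The log2 fold change of Plcg2, the related phospholipase C gene of B and NK cells, was -0.11 (206 ± 19.4 CPM in KO, n = 2, and 223 ± 11.2 CPM in WT, n = 4, SD, adjusted p = 0.517). Cblb, a ubiquitin ligase gene that restrains lymphocyte activation, had a log2 fold change of -0.54 (adjusted p = 0.0271). The adaptor gene Nck1 had -0.48 (adjusted p = 0.0326). Lat lost its call without KO 1, WT 1 or WT 3 (adjusted p 0.0725 to 0.176), Cblb without KO 1, KO 2, WT 1 or WT 2 (0.0632 to 0.139) and Nck1 without KO 1, KO 2, WT 1, WT 2 or WT 3 (0.076 to 0.187). The phosphatase genes Inpp5d, Ptpn6 and Ptpn11, whose products bind SLAM receptor tails, had log2 fold changes of -0.14, 0.02 and 0.04 (adjusted p 0.505 to 0.926).

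**Figure D5:**
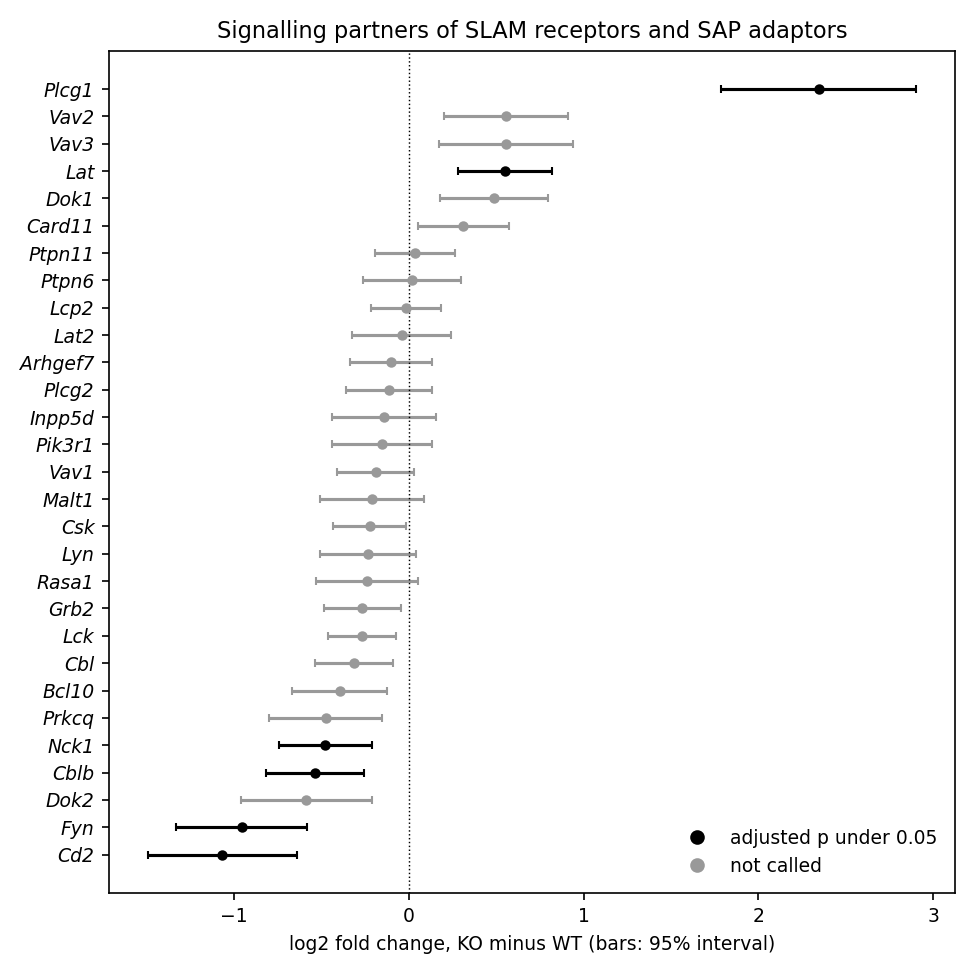
Log2 fold change (KO minus WT) of 29 signalling partner genes with 95% intervals before adjustment; black points are called at an adjusted p under 0.05. Cd2 and Fyn stand at the low end and Plcg1, at 2.34, at the high end.

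Genes whose profile over the 6 libraries was most like that of Slamf6 were Angpt1, Rsph1 and Arl4d. Their root mean square distance from it, on log2 CPM centred on each gene's mean, was 0.127, 0.139 and 0.143. Angpt1, the angiopoietin 1 gene, had 9.78 ± 1.61 CPM in KO (SD, n = 2) and 37.7 ± 4.41 CPM in WT (SD, n = 4), and Rsph1 was under 1 CPM in every library. For Cd84 they were Dnaaf5, Ssh1 and Arl2bp, at distances of 0.0559, 0.0561 and 0.0564, with log2 fold changes of -0.77, -0.66 and -0.78.

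By sex, the change of Slamf6 was alike, with KO over same-sex WT at -1.97 (log2) in females and -2.07 in males. Cd84 had -0.76 in females and -0.67 in males. Sh2d1a had -1.39 in females and -0.36 in males, and Ly9 had -0.65 in females and -0.10 in males. The female values compare the same libraries as the fits without KO 1, and the male values as those without KO 2. They are not a separate result. The genotype by sex term was not called for any member (lowest adjusted p = 0.355, for Sh2d1a), although Sh2d1a and Ly9 were under 0.05 before adjustment. Over all genes tested 0 were called (0%) by edgeR and by limma voom, 1368 of them under 0.05 before adjustment by edgeR, and 128 by DESeq2. Each sex had 1 KO mouse, so sex and individual mouse cannot be told apart in KO. X-linked Sh2d1a did not pass the test between female and male libraries (female minus male -0.40, adjusted p = 0.761), nor did any other member. Of all genes tested, 0 (0%) passed that comparison in edgeR and limma voom, with 866 under 0.05 before adjustment in edgeR, and DESeq2 called 28. The labelled sexes were not checked here against sex-linked genes. As edgeR called no gene at all between the sexes, its result cannot show that a member is alike in both.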

How the data were processed

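The authors deposited whole-number counts per Entrez gene for 6 libraries, not normalized, with a gene length in bases as another column. Per the labels' protocols, cDNA was amplified with SMART-Seq v4, which keeps no strand, and sequenced paired-end. Featurecounts and mm10 are named in the submitters' processing notes; the aligner is not given in the sources used here. The table held 0 columns of other samples, and the 6 single-sample files held identical counts. RefSeq (GRCm38.p6) gave symbols for 25275 of 26332 genes; the 1057 others, with 0.623% of counts, stayed in the tests. Promoter windows are RefSeq's.

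No 2 libraries of 1 genotype agreed within sampling noise, with a chi-square over its degrees of freedom of 53.7 in KO and 8.86 to 62.2 in WT, so none were merged. PCR duplicates were not marked by molecular identifiers, so floors cover counting error only.

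Counts were fitted with edgeR 4.0.16 under R 4.3.3, using TMM scaling, filterByExpr, glmQLFit and glmQLFTest with genotype and sex, 3 residual degrees of freedom, Benjamini-Hochberg over 13652 genes, called under 0.05. SE and intervals were derived from the test statistic. The fit was also run on simulated data, whose outcome is not reported here and is not used as support. RPKM divides TMM-scaled CPM by length in kilobases. Alternatives were other scalings and filters, no sex term, a replicate block, DESeq2 1.42.0, limma voom (3.58.1), robust fitting and libraries left out.

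The members and gene lists were chosen with earlier results of these data known. Named were all 9 members, Tcf7, 3 further family genes, the called partners (up to 5 by size of change) with Fyn, called locus neighbours and the 3 nearest profiles of each called member. Nck1, the sixth called partner, and the uncalled partners and neighbours that are named were chosen after their values were seen. Of the 5 gamma-delta T cell names, 2 were found in the table.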

Additional observations from a re-analysis of the deposited data

How the results depend on the processing

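Slamf6, Cd84, Fyn, Cd2, Plcg1 and Tcf7 kept their direction and their call in all 18 other settings. The settings are not independent. The replicate block makes the same comparison as leaving out WT 3 and WT 4 (Slamf6 at -2.12 in both). Leaving out WT 4 and KO 2 makes the same comparison as leaving out KO 2 alone (Slamf6 at -2.07 in both). Of the genes recomputed under the alternatives (the 9 members, Tcf7, Slamf9, Sh2d1b2, the 6 called partners, Pex19 and the 6 nearest profiles), none changed direction where it was tested. The count of genes called was 1872, and it ranged from 934 to 1908 with 1 library left out and was 2955 by DESeq2. With library-size scaling, 71.9% of calls were higher in KO (1336 higher, 523 lower), against 59.3% with TMM (1110 higher, 762 lower). Of the 9 members, 2 were called. The count was 2 to 4 with 1 library left out and 4 without the expression filter, by DESeq2 and by limma voom. It was also 4 without WT 4 and KO 2, and 3 without WT 3 and WT 4, both chosen after seeing the data. The added calls were Slamf7, Sh2d1a, Ly9 (without KO 1) and Sh2d1b1 (without WT 4 and KO 2). Where 1 KO library remained, it was assumed to vary like WT. Of the partners, 6 were called. The count was 3 to 7 with 1 library left out, 11 without the filter, 16 by DESeq2, 13 by voom and 11 in a robust fit. The 1 called locus neighbour, Pex19, became 0 with library-size scaling, the replicate block, any 1 library left out (0 to 0) and without WT 3 and WT 4. For genotype by sex, 91 genes were called without the filter and 128 by DESeq2. Between the sexes the counts were 15 and 28. In each case no member was among them. The causes were not tested. The order of members was the same in TPM.

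The replicate numbers are not said to mark litters or days. Deviations of same-numbered libraries from their group means correlated at 0.132 for number 1 and -0.0478 for number 2. With 2 KO libraries the deviations of KO 1 and KO 2 mirror each other, so these values cannot decide whether libraries are paired. The numbers were not taken as pairs because no label gives them that meaning. The fit with a replicate block called 1341 genes, 3 members (Slamf6, Cd84 and Sh2d1a, the last at an adjusted p of 0.0388) and 4 partners. WT 3 and WT 4 have no KO library of their number. Only KO 1, KO 2, WT 1 and WT 2 therefore inform the genotype change in that fit.

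Depth limits Slamf1, Slamf8, Slamf9 and Sh2d1b2, which had libraries at or under 3 counts (0.0963 to 0.183 CPM).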
